A study of Mus musculus with 43 samples.

Results

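The genes described here encode the ligands, receptors, secreted antagonists and nuclear partners of Wnt signalling. They were taken by symbol from 5 tables of inguinal white adipose tissue RNA, as the protein-coding genes named Wnt, Fzd, Sfrp, Dkk, Rspo or Tcf7l with a number, plus Frzb, Wif1, Lrp5, Axin1, Ctnnb1, Lef1, Znrf3, Rnf43 and Lgr4. Sfrp5 was left out by the rule, and 8 further genes that the rule names are not analysed here. This gave 45 members of 22622 gene identifiers: 17 ligands, 10 receptors and co-receptors, 7 secreted antagonists, 6 genes of the R-spondin arm and 5 intracellular genes.

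Wnt proteins are secreted lipid-modified ligands that bind a Frizzled receptor together with the co-receptor Lrp5 or its close relative. Binding stops a cytoplasmic complex built on Axin1 from destroying beta-catenin, the product of Ctnnb1, which then joins the DNA-binding proteins Lef1, Tcf7l1 or Tcf7l2 at target genes. R-spondins act through Lgr4 to protect Frizzled from the ubiquitin ligases Rnf43 and Znrf3, while Sfrp, Frzb and Wif1 proteins bind Wnts and Dkk proteins act mostly on the co-receptor. In fat, canonical Wnt signalling, with Wnt10b as its best known ligand, holds preadipocytes back from becoming adipocytes.

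The study asked how beige adipocytes arise around weaning and how cold recruits them in adults. It comprises 43 samples of inguinal white adipose tissue, a subcutaneous depot, in 9 groups. At 9 weeks of age and 4 C there were 4 Bcl6-flox Prx1-cre samples and 4 Bcl6-flox samples, so that both groups carry the floxed Bcl6 allele. At postnatal day P25 and 22 C there were 8 Bcl6-flox Prx1-cre samples and 7 Bcl6-flox samples. Wild-type C57BL/6J mice gave 4 samples at 4 C and 4 at 22 C at 9 weeks, and 4 samples at 30 C and 4 at 22 C at P28. TrkA-flox Th-cre mice gave 4 samples at P28 and 22 C, and were set against the same 4 wild-type libraries at 22 C, which lack both the floxed allele and Cre. Prx1-cre is active in limb and body-wall mesenchyme, and so in more than adipocytes, whereas Th-cre is active in cells that make tyrosine hydroxylase, such as sympathetic neurons. The labels name no animals, and the p-values below therefore reflect sample-to-sample spread, part of which may be technical.

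Values are the authors' normalized counts, and each of the 5 tables was scaled on its own. The worth of 1 read, read off the spacing of low values, gave rough depths between 3493000 and 30430000 reads per library, highest in the 9-week Bcl6 table. The adipocyte gene Adipoq averaged between 8928 and 95641 normalized counts in each group. The Bcl6 gene total was higher, not lower, in libraries labelled Prx1-cre, at 11609 ± 2339 against 1995 ± 392 in Bcl6-flox at 9 weeks (SD, n = 4 each). At P25 it was 2714 ± 584 (n = 8) against 825 ± 340 (n = 7), and such totals do not show which exons were read. Xist, the transcript of the inactive X chromosome, was high in all 8 libraries of the 9-week Bcl6 table and was mixed within each group of the other 4 tables. The mix was uneven at P28, with 3 high and 1 low at 30 C and 1 high and 3 low in TrkA-flox Th-cre. Wild type at P28 and 22 C had 2 of each. In bulk tissue, fewer cells of a type and less RNA per cell cannot be told apart.

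Levels were compared between genes only per kilobase of transcript, after each library was scaled to the same total, a level on the scale of RPKM. In wild type at 9 weeks, beta-catenin (Ctnnb1) stood highest on this scale, at a mean of 135 at 4 C and 127 at 22 C. Fzd4, a Frizzled also known as the receptor of Norrin in blood vessels, was the most abundant receptor, at 29.9 at 4 C and 39.3 at 22 C. The co-receptor Lrp5 followed, at 25.1 at 4 C and 22.1 at 22 C. Among ligands Wnt5a, best known for signalling without beta-catenin, had the highest mean at 22 C, at 4.49, and averaged 4.90 ± 0.61 at 4 C. Wnt4 averaged 5.80 ± 5.37 at 4 C (SD, n = 4 each), a spread within which the order of these 2 ligands is not resolved. Sfrp2, a Wnt-binding antagonist of stromal cells, had the highest antagonist mean in both groups, at 6.60 ± 4.10 at 4 C and 22.6 ± 19.6 at 22 C (SD). Dkk3 came next at 4 C, at 3.69 ± 3.05, and the order of Sfrp2 and Dkk3 is not resolved there.

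The nuclear factor Lef1 differed widely in level between tables. On that scale it averaged 16.9 at 30 C and 12.5 at 22 C in wild type at P28, and 0.121 at 4 C and 1.84 at 22 C in wild type at 9 weeks. T and NK cell and B cell markers moved with it between tables. The summed T and NK cell markers were 1869 to 2614 at 30 C and 1618 to 2183 at 22 C at P28, against 63.4 to 139 at 4 C and 119 to 1167 at 22 C at 9 weeks. Because the tables were scaled separately, no test was made across them, and the part of lymphocytes in the Lef1 level was not tested.

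**Figure D1:**
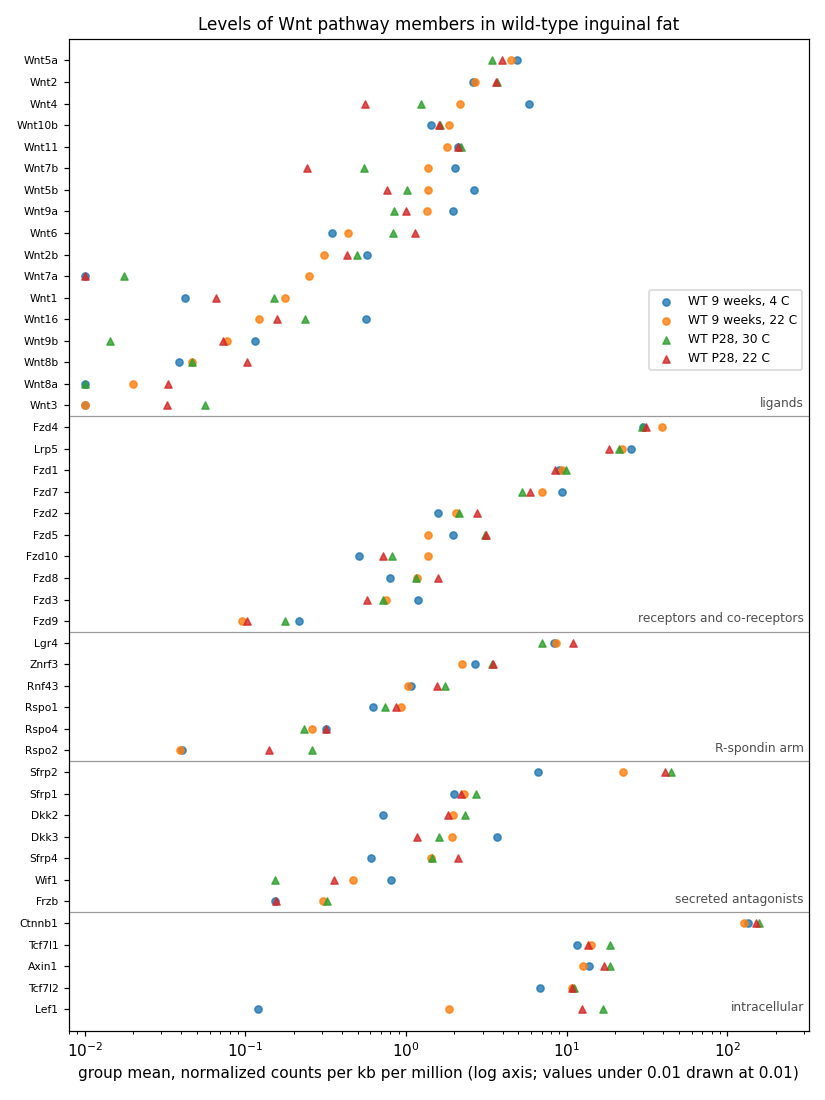
Group means of the 45 members in wild-type inguinal fat, in normalized counts per kb on the RPKM scale, on a log axis with values under 0.01 drawn at 0.01, with circles for 9 weeks (4 C and 22 C) and triangles for P28 (30 C and 22 C). Ctnnb1, Fzd4 and Lrp5 lie at the high end, as does Sfrp2 except at 9 weeks and 4 C, where it averages 6.60. Each ligand lies below 5 except Wnt4 at 4 C, and Lef1 is far lower at 9 weeks than at P28.

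A gene was tested where a number of libraries no smaller than the size of the smaller group had 10 or more normalized counts. On that rule 38 of 45 members were tested in the 9-week Bcl6 table, 30 at P25, 31 in wild type at 9 weeks, 30 in the P28 temperature table and 27 in the TrkA table. The ligands Wnt1, Wnt3, Wnt7a and Wnt8a, the receptor Fzd9 and the R-spondins Rspo2 and Rspo4 passed in none. Their highest value in any library was 67.5, for Fzd9 in floxed replicate 3 at 9 weeks. Ctnnb1, Axin1, Tcf7l1, Tcf7l2, Lrp5 and Lgr4 were tested in every table.

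At 9 weeks and 4 C, 7 members passed the limma threshold (adjusted p under 0.05) between libraries labelled Bcl6-flox Prx1-cre and Bcl6-flox libraries. The ligands Wnt8b and Wnt9b, the receptors Fzd1 and Fzd4 and the nuclear factor Tcf7l1 were higher in Prx1-cre, and the receptors Fzd7 and Fzd3 were lower. These are 18.4% of the 38 members tested, beside 14.5% of the 13496 genes tested (9.01% higher and 5.46% lower). They comprise 4 of 9 receptors and co-receptors, 2 of 13 ligands and 1 of 5 intracellular genes, and none of 7 antagonists or 4 R-spondin genes. The median log2 fold change was 0.19 over the receptors, -0.54 over the ligands and -0.13 over all members tested, beside -0.02 over all genes tested. Wnt8b and Wnt9b met the low-value filter through the Prx1-cre libraries, where they are high, and Rspo1 and Lef1 through the floxed libraries. These genes thus entered the test by the difference under test. At an unadjusted p under 0.05 there were 14 of 38 members, beside 4030 of 13496 genes, and 2 of them were antagonists and 1 was of the R-spondin arm.

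Wnt8b and Fzd7 were the members that passed in each of the 8 fits that left out 1 library. For that reason the 250 bases before their annotated starts are printed, 5′ to 3′ on the plus strand. They come from RefSeq on GRCm38.p6, the mm10 assembly. For Wnt8b the repeated passing is a description only, since the gene met the filter through the Prx1-cre libraries in each fit. Wnt8b begins at base 44493472 of chromosome 19 and its sequence covers chr19:44493222-44493471. Fzd7 begins at base 59482147 of chromosome 1 and its sequence covers chr1:59481897-59482146. Capitals mark a match on either strand to CTTTGAA or to the like run that ends in AT, TA or TT in place of AA, the letters that Lef1 and Tcf proteins are known to bind.
Wnt8b: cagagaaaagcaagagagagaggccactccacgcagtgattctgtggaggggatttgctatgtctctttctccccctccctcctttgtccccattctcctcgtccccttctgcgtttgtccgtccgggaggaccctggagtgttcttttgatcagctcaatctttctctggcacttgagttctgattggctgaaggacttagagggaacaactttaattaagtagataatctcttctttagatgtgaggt
Fzd7: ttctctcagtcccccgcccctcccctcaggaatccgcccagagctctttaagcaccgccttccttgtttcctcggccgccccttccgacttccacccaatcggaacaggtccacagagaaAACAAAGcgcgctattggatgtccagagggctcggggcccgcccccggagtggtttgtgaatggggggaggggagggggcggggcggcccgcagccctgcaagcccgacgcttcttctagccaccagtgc
The Fzd7 sequence held 1 match, AACAAAG, and the Wnt8b sequence none. Such a match occurs in 14.8% of 32851 promoters of the same length and in 5 of the 32 members with a promoter entry, namely Fzd7, Lef1, Tcf7l2, Wnt11 and Wnt5b. TTCNNNGAA, the motif of Stat proteins, which overlaps the known Bcl6 motif, occurs in 7.02% of promoters and in Frzb and Wnt5b among members. Neither printed sequence holds TTCNNNGAA, and nothing about a factor follows from a match or its absence.

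Wnt8b, a ligand of the beta-catenin pathway best known from the developing forebrain, had 66.2, 50.3, 37.9 and 63.1 normalized counts in the Prx1-cre libraries, against 0, 1.69, 4.73 and 0 in the floxed libraries. Each Prx1-cre library lay above each floxed library. The log2 fold change was 4.77 ± 0.58 (SE, limma adjusted p = 0.0020) on the log2(value + 1) scale, which understates changes of low genes. Its test is a description only, since the gene passed the filter through the group where it is high. In the other 4 tables Wnt8b did not exceed 6.42 in any library and was not tested. Scd1 and Sec31b, genes on the same stretch of chromosome 19, had log2 fold changes of 0.04 ± 0.62 and -0.09 ± 0.14 in this comparison (SE, limma adjusted p = 0.973 and 0.675). Whether the wider stretch differed was not tested.

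Wnt9b, a ligand known for kidney tubule formation, stayed near the filter. It had 17.4, 13.5, 21.0 and 17.3 in the Prx1-cre libraries, against 4.41, 3.34, 13.3 and 4.25 in the floxed libraries. The groups did not overlap, though floxed replicate 3 came within 0.3 counts of the lowest Prx1-cre library. The log2 fold change was 1.48 ± 0.40 (SE, limma adjusted p = 0.0420), with the same limit as for Wnt8b.

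Fzd7, a Frizzled receptor of progenitor and stem cells in several tissues, had the smallest p of all members. Its values were 463, 461, 560 and 490 in the Prx1-cre libraries, against 850, 835, 794 and 842 in the floxed libraries. No Prx1-cre library came near a floxed one, and the log2 fold change was -0.75 ± 0.08 (SE, limma adjusted p = 0.0012).

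Fzd3, which works mainly in planar cell polarity and axon guidance, had 238, 196, 219 and 236 in the Prx1-cre libraries, against 322, 334, 271 and 290 in the floxed libraries. Again the groups did not overlap, and the log2 fold change was -0.45 ± 0.11 (SE, limma adjusted p = 0.0289).

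Fzd1, a receptor of beta-catenin signalling, had 872, 872, 1050 and 1081 in the Prx1-cre libraries, against 804, 595, 708 and 610 in the floxed libraries. Its log2 fold change was 0.51 ± 0.12 (SE, limma adjusted p = 0.0257), with no overlap between the groups. Fzd4 had 8976, 7837, 6121 and 7179 in the Prx1-cre libraries, against 5210, 4703, 6230 and 4054 in the floxed libraries. Floxed replicate 3 lay above Prx1-cre replicate 3, so the groups overlapped, and the log2 fold change was 0.58 ± 0.15 (SE, limma adjusted p = 0.0389).

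Tcf7l1, the Tcf protein that acts mostly as a repressor when beta-catenin is absent, had 1012, 1049, 1201 and 1081 in the Prx1-cre libraries, against 688, 610, 968 and 678 in the floxed libraries. The groups did not overlap, with floxed replicate 3 the nearest to Prx1-cre, and the log2 fold change was 0.58 ± 0.14 (SE, limma adjusted p = 0.0266). Ctnnb1 averaged 10784 ± 634 in Prx1-cre and 11398 ± 514 in floxed libraries (SD, n = 4 each), with a log2 fold change of -0.08 ± 0.07 (SE) and a limma adjusted p of 0.492. Lef1 had 9.51, 8.56, 10.9 and 10.3 in the Prx1-cre libraries, against 16.0, 11.9, 15.4 and 32.2 in the floxed libraries. It lay lower in each Prx1-cre library but missed the threshold, at -0.78 ± 0.32 (SE, limma adjusted p = 0.141). Lef1 met the filter through the floxed libraries, where it is higher, so its test is a description only.

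**Figure D2:**
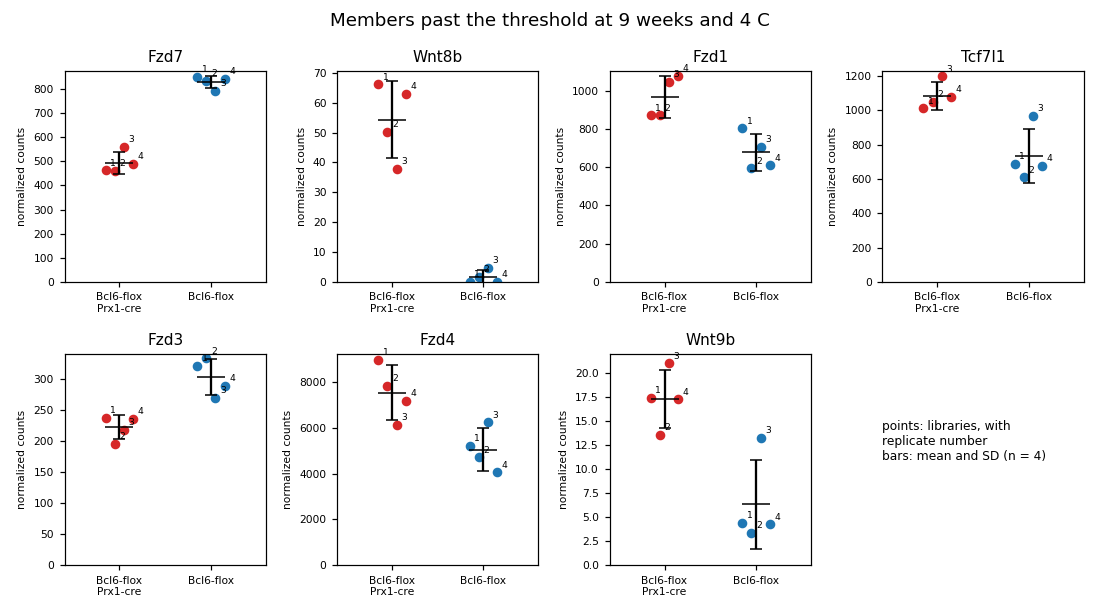
Normalized counts of the 7 members past the threshold at 9 weeks and 4 C, with 1 point per library marked by its replicate number, and bars for mean and SD (n = 4). Wnt8b is near 0 in the floxed libraries, and Fzd7 lies between 461 and 560 in Bcl6-flox Prx1-cre and between 794 and 850 in Bcl6-flox.

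The next members by p were the antagonist Dkk3 and the R-spondin Rspo1. Dkk3, a divergent Dickkopf that does not act on the Wnt co-receptors the way Dkk2 does, averaged 348 ± 122 in Prx1-cre and 148 ± 57.3 in floxed libraries (SD, n = 4 each), a log2 difference of 1.28 ± 0.38 (SE, limma adjusted p = 0.0548). Rspo1 averaged 8.63 ± 0.95 and 15.01 ± 1.52 in the same order, at -0.73 ± 0.22 (SE, limma adjusted p = 0.0618). Neither group pair overlapped, neither gene passed, and no Prx1-cre library reached 10 for Rspo1.

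Floxed replicate 3 stood apart from the other floxed libraries at 9 weeks. Its summed skeletal muscle markers were 580008, against 192 to 5074 in Prx1-cre and 2613 to 23783 in the other floxed libraries. Its summed epithelial markers, 8 genes that include keratins and Epcam, were 3643, against 7649 to 17576 in Prx1-cre and 27578 to 37868 in the other floxed libraries. Some members were low in the same library. Wnt4, the progesterone-induced ligand of mammary epithelium, had 271, 365, 575 and 555 in the Prx1-cre libraries, against 775, 868, 263 and 1186 in the floxed libraries, with the low value in floxed replicate 3. Wnt7b had 85.8, 98.2, 172 and 157 in Prx1-cre, against 276, 326, 45.3 and 381 in floxed libraries. Rnf43, the Frizzled-removing ligase, had 71.8, 65.5, 95.1 and 83.8 in Prx1-cre, against 178, 201, 45.3 and 215 in floxed libraries.

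Without floxed replicate 3, 14 members passed, beside 26.0% of all genes tested. The 7 members above all remained, and Dkk3 at a log2 fold change of 0.91 joined them on the higher side. On the lower side Wnt4 (-1.14), Wnt5b (-1.42), Wnt7b (-1.40), Wnt10b (-1.84), Rnf43 (-1.32) and Sfrp2 (-1.32) were added, all against the 3 remaining floxed libraries. All 8 epithelial markers were lower in Prx1-cre in the same fit, from -1.85 for Csn3, a milk casein, to -1.12 for Krt5, the basal keratin. With all 8 libraries the epithelial list had no member past the threshold in limma and 0 of 8 with a positive log2 fold change. Leaving out Prx1-cre replicates 1, 2, 3 and 4 in turn gave 3 members each time, beside 8.06%, 9.18%, 11.7% and 10.8% of genes. Leaving out floxed replicate 1 gave 3 members beside 7.74%, replicate 2 gave 2 beside 8.05%, and replicate 4 gave 2 beside 10.1%. With a skeletal muscle score as covariate 14 members passed beside 21.4% of genes, and with the replicate number as a block 3 passed beside 8.68%. The part of epithelial cells in these members was not tested. All 7 macrophage markers were higher in Prx1-cre, with sums of 16690 to 28589 against 9387 to 12679 in floxed libraries. Of the 10 fibroblast and progenitor markers Col1a1 and Col3a1 passed higher, but the list had 7 positive and a median of 0.09. Of 6 smooth muscle and pericyte markers 4 were positive, and Rgs5 and Pdgfrb passed higher. All 6 endothelial markers were positive, and Plvap passed higher. All 6 thermogenic adipocyte markers passed lower in Prx1-cre, with sums of 10346 to 37886 against 75661 to 118574 in floxed libraries. Ucp1 among them averaged 17143 in Prx1-cre and 66626 in floxed libraries. Whether any of these cell types took part in the member differences was not tested.

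The other pathway genes at 9 weeks are counted here beside the 14.5% of all genes past the threshold. Of 3 secretion genes 2 were higher in Prx1-cre, namely Trabd2b, a membrane protease that clips Wnts, at 3579 ± 950 against 1630 ± 389 in floxed libraries (SD, n = 4 each), and Porcn, the enzyme that adds their lipid, at 673 ± 54.1 against 530 ± 49.1. Of 20 further surface genes tested 2 were higher and 2 lower. Lgr6, an R-spondin receptor like Lgr4, was lower, at 34.3 ± 15.7 in Prx1-cre and 172 ± 51.9 in floxed libraries, as was the glypican Gpc4. Shisa3, which holds Frizzled back inside the cell, and Prickle2 of planar polarity were higher. Of 27 cytoplasmic and nuclear genes 4 passed, close to the share of all genes. Nkd1 and Ctnnbip1, both inhibitors of the pathway, were higher and the kinase gene Gsk3a and the Dishevelled gene Dvl3 were lower. Of 14 genes listed as beta-catenin targets 2 were higher and 1 lower. Nkd1, which is on both lists, had 443 ± 102 in Prx1-cre and 163 ± 24.8 in floxed libraries, and the fold change was 1.41 ± 0.19 on the log2 scale (SE, limma adjusted p = 0.0030). Myc was higher at 0.82 ± 0.21 and Msx1 lower at -0.64 ± 0.18 (SE, limma adjusted p = 0.0359 and 0.0448).

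At P25 and 22 C, the same genotypes gave no member past the limma threshold among 30 tested, with 3 at an unadjusted p under 0.05. The background was 3.53% of 12738 genes tested (1.56% higher and 1.97% lower), and 1910 genes had an unadjusted p under 0.05. The 3 members were Fzd7, Dkk3 and Fzd1. Fzd7 ran from 102 to 258 with a median of 144 in the 8 Prx1-cre libraries, against 161 to 434 with a median of 242 in the 7 floxed libraries. The groups overlapped, and the log2 fold change was -0.61 ± 0.22 (SE, limma adjusted p = 0.178). With Xist class, high or low, as a covariate Fzd7 passed, at -0.66 ± 0.17 (SE, limma adjusted p = 0.0441), beside 3.99% of all genes. With the column codes that both genotypes share as a block, a fit chosen after the data were seen, Fzd7 also passed, at -0.56 ± 0.14 (SE, limma adjusted p = 0.0485), beside 5.74% of all genes. Codes that start with M were all Xist-low and those with F all Xist-high. The block thus holds the Xist class and is no separate check. Within the Xist-low libraries the Fzd7 means were 130 in Prx1-cre and 203 in floxed (n = 4 each), and within the Xist-high libraries 201 (n = 4) and 319 (n = 3).

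Dkk3 at P25 ran from 39.8 to 142 with a median of 68.1 in Prx1-cre, against 14.6 to 81.8 with a median of 46.8 in floxed libraries, at 0.88 ± 0.35 (SE, limma adjusted p = 0.231). Fzd1 ran from 305 to 454 with a median of 388 in Prx1-cre, against 222 to 464 with a median of 269 in floxed libraries, at 0.38 ± 0.16 (SE, limma adjusted p = 0.260). Dkk2, the Dickkopf that binds the co-receptors, ran from 20.2 to 150 with a median of 87.4 in Prx1-cre, against 21.0 to 159 with a median of 28.2, at 0.87 ± 0.49 (SE, limma adjusted p = 0.439). In all 3 the groups overlapped. Ctnnb1 was at -0.03 ± 0.10 and Lef1 at 0.20 ± 0.83 (SE), the second with values from 0.77 to 91.8 in Prx1-cre and 4.60 to 79.1 in floxed libraries. The wide Lef1 range ran beside T and NK cell marker sums of 93.3 to 971 in Prx1-cre and 45.4 to 1026 in floxed libraries. Of 20 further surface genes only Shisa3 passed, at 2.09 ± 0.45 (SE, limma adjusted p = 0.0146), and it was higher in Prx1-cre as at 9 weeks. No gene of the other 3 pathway lists passed in limma. Of 6 thermogenic adipocyte markers 5 passed, all lower in Prx1-cre, and Ucp1 averaged 375 in Prx1-cre and 6405 in floxed libraries. The part of these cells in the member values was not tested.

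Wnt4 differed more between Xist classes than between genotypes in its means at P25. It averaged 46.8 in Prx1-cre (n = 4) and 59.3 in floxed libraries (n = 3) among Xist-high libraries, and 8.35 in Prx1-cre and 10.9 in floxed libraries among Xist-low libraries (n = 4 each). The split by Xist class was chosen after the values were seen and was not tested.

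The genotype effects at the 2 ages come from separate tables and separate libraries, so their difference was tested directly. Temperature differed together with age, at 22 C for P25 and 4 C at 9 weeks. Every 9-week library was Xist-high, while Xist was mixed at P25. Age, temperature and Xist class cannot be told apart in this difference. None of 30 members tested at both ages differed in the t test of the difference, beside 0.304% of 12487 genes, and 1 member and 1147 genes had an unadjusted p under 0.05. That member was Tcf7l1, whose fold change was larger at 9 weeks by 0.42 (95% interval 0.06 to 0.78, adjusted p = 0.443). For Fzd7 the log2 fold change was -0.75 at 9 weeks and -0.61 at P25, a difference of -0.14 (95% interval -0.64 to 0.36). Of the 7 members past the threshold at 9 weeks, 5 were tested at P25, and each of these had the sign there that it had at 9 weeks. The like share over all genes was not counted, so nothing particular to the members follows from these signs. Wnt8b and Wnt9b were under the filter at P25, with Wnt8b at 2.11 to 6.42 in Prx1-cre and 0 to 3.05 in floxed libraries.

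**Figure D3:**
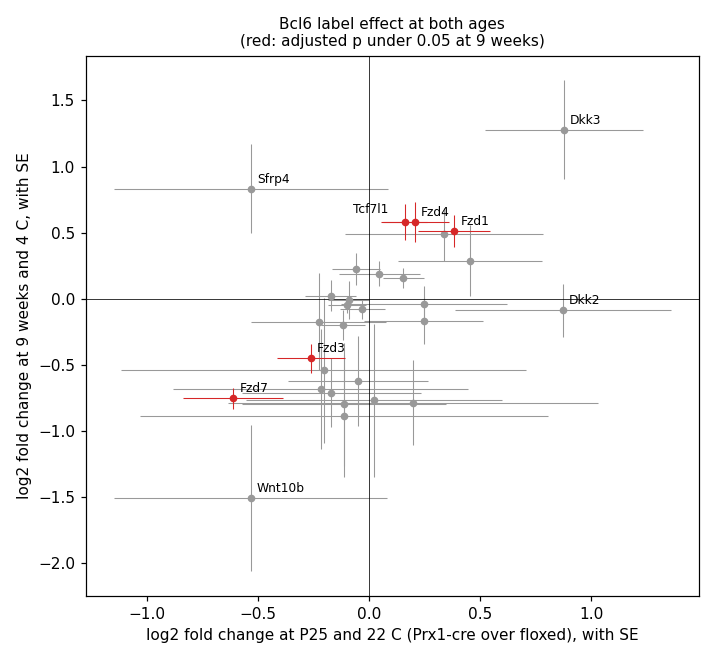
Log2 fold changes of Bcl6-flox Prx1-cre over Bcl6-flox for the 30 members tested at both ages, P25 and 22 C on the horizontal axis and 9 weeks and 4 C on the vertical axis, with bars for SE. The 5 members past the threshold at 9 weeks (red) lie on the same side of 0 at both ages, from Fzd7 at -0.61 and -0.75 to Fzd1 at 0.38 and 0.51. The like share over all genes was not counted.

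In wild-type mice of 9 weeks, 4 C against 22 C gave no member past the limma threshold among 31 tested, with 6 at an unadjusted p under 0.05. The background was 4.47% of 12118 genes (2.03% higher and 2.44% lower), and 2886 genes had an unadjusted p under 0.05. The thermogenic gene Ucp1 averaged 21153 at 4 C and 289 at 22 C in these libraries. Dkk2 had 22.1, 13.1, 24.9 and 22.3 at 4 C, against 24.8, 59.9, 81.8 and 53.3 at 22 C. The highest library at 4 C reached the lowest at 22 C, and the log2 fold change was -1.29 ± 0.39 (SE, limma adjusted p = 0.0904).

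Fzd3 had 103, 87.4, 142 and 132 at 4 C, against 61.4, 78.2, 87.3 and 64.1 at 22 C. The groups just failed to overlap, and the log2 fold change was 0.66 ± 0.20 (SE, limma adjusted p = 0.0974). Fzd7 had 272, 289, 413 and 328 at 4 C, against 198, 230, 278 and 254 at 22 C, at 0.43 ± 0.16 (SE, limma adjusted p = 0.155). Only the lowest library at 4 C fell within the 22 C range. Fzd8, a receptor of beta-catenin signalling, had 30.8, 40.3, 42.4 and 35.5 at 4 C, against 58.1, 49.9, 42.6 and 64.7 at 22 C, at -0.51 ± 0.21 (SE, limma adjusted p = 0.182).

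Each group of this table holds 2 Xist-high and 2 Xist-low libraries. With Xist class as a covariate, 4 of 31 members passed, beside 18.4% of all genes tested. These were Sfrp2 (-1.43 ± 0.27, SE, limma adjusted p = 0.0126), Fzd7 (adjusted p = 0.0296), Dkk2 (adjusted p = 0.0314) and Fzd3 (adjusted p = 0.0341). Sfrp2 had 70.3, 43.7, 173 and 112 at 4 C, against 106, 102, 649 and 467 at 22 C, with the larger values in Xist-high libraries of both groups. Its means among Xist-high libraries were 143 at 4 C and 558 at 22 C, and among Xist-low libraries 57.0 at 4 C and 104 at 22 C (n = 2 each). The log2 difference of Fzd7 was 0.47 among Xist-high and 0.39 among Xist-low libraries. For Fzd3 it was 0.87 and 0.45, and for Dkk2 it was -1.45 and -1.14, in the same order. With the skeletal muscle score as covariate Dkk2 and Sfrp2 passed, beside 15.2% of genes.

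**Figure D4:**
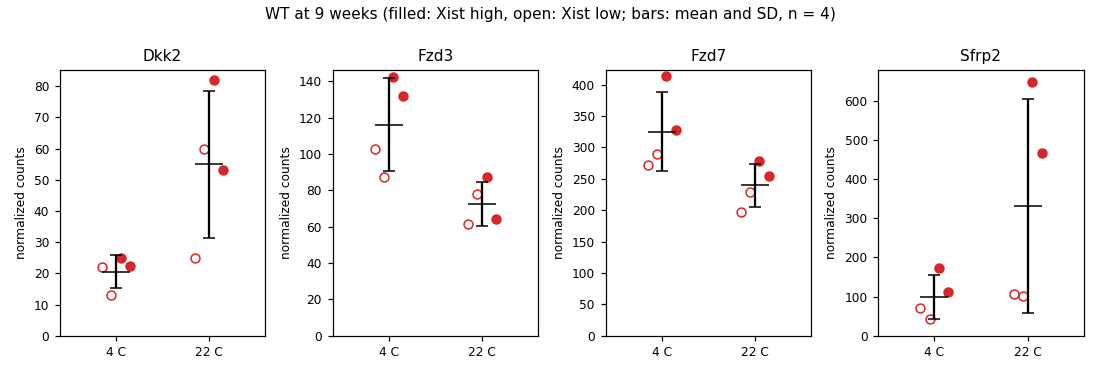
Normalized counts of Dkk2, Fzd3, Fzd7 and Sfrp2 in wild-type libraries at 9 weeks, 4 C to the left of 22 C, filled where Xist was high and open where it was low, with bars for mean and SD (n = 4). Sfrp2 at 22 C splits into 102 and 106 where Xist was low and 467 and 649 where it was high.

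Wnt4 showed a wide range in both groups, with 90.0, 4.73, 258 and 367 at 4 C, against 14.7, 5.73, 132 and 114 at 22 C. The summed epithelial markers ran in parallel, at 2492, 9.48, 8477 and 7258 at 4 C, against 267, 31.1, 4241 and 3285 at 22 C. The Wnt4 log2 fold change was 1.24 ± 1.45 (SE, limma adjusted p = 0.659), and the part of epithelial cells was not tested. Over the 9 ligands tested the median log2 fold change was 0.60, and 8 were positive, beside 6388 of all 12118 genes tested. None of the 9 ligands had an unadjusted p under 0.05 in limma. Over the 6 antagonists the median was -0.55, beside 0.02 over all genes. The fibroblast and progenitor markers had a median of -0.69, with sums of 14406 to 31635 at 4 C and 23581 to 93837 at 22 C, and their part in the antagonist values was not tested.

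Lef1 was under the filter in this table, with 2.74, 5.08, 2.86 and 2.70 at 4 C, against 23.9, 7.01, 145 and 7.74 at 22 C. B cell marker sums were 11.6, 8.86, 16.9 and 89.3 at 4 C, against 830, 26.4, 1201 and 80.8 at 22 C. Ctnnb1 averaged 3809 ± 121 at 4 C and 3510 ± 275 at 22 C (SD, n = 4 each), at 0.12 ± 0.10 (SE, limma adjusted p = 0.513). Among the other pathway genes Lgr6 was higher at 4 C, at 72.8 ± 22.3 against 9.61 ± 10.2 at 22 C (SD, n = 4 each), a log2 difference of 3.43 ± 0.78 (SE, limma adjusted p = 0.0479). Lgr6 met the low-value filter through the 4 C libraries, where it is high, so its test is a description only. Celsr2, an atypical cadherin of planar polarity, fell to 525 ± 247 at 4 C, against 1764 ± 279 at 22 C. Tle3, a co-repressor that Tcf proteins recruit, was lower at -0.54 ± 0.10 (SE, limma adjusted p = 0.0345). These were 2 of 18 surface genes and 1 of 27 cytoplasmic and nuclear genes, and none of 14 targets or 3 secretion genes passed.

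At P28 the comparison of 30 C, near thermoneutrality for mice, with 22 C gave no member past the limma threshold among 30 tested, with 5 at an unadjusted p under 0.05. The background was 4.45% of 12283 genes (1.29% higher and 3.17% lower), and 2386 genes had an unadjusted p under 0.05. Ucp1 averaged 109 at 30 C and 1758 at 22 C. Tcf7l1 had 261, 304, 261 and 290 at 30 C, against 194, 243, 192 and 234 at 22 C. The groups did not overlap, and the log2 fold change was 0.38 ± 0.10 (SE, limma adjusted p = 0.0781).

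Lgr4, the R-spondin receptor, had 182, 254, 132 and 132 at 30 C, against 228, 323, 314 and 289 at 22 C. Only replicate 2 at 30 C lay within the 22 C range, and the log2 fold change was -0.76 ± 0.21 (SE, limma adjusted p = 0.0860). Of the 8 fits that each left out 1 library, Lgr4 passed in the 1 without that overlapping library, at -0.96 and an adjusted p of 0.0298, beside 2.33% of all genes. In the other 7 its adjusted p ran from 0.0958 to 0.206. Fzd8 had 26.2, 34.1, 36.5 and 39.4 at 30 C, against 42.5, 55.0, 56.0 and 42.9 at 22 C, at -0.52 ± 0.18 (SE, limma adjusted p = 0.161), with no overlap. Lef1 had 275, 231, 357 and 295 at 30 C, against 252, 191, 248 and 204 at 22 C, at 0.36 ± 0.15 (SE, limma adjusted p = 0.209). Ctnnb1 averaged 2814 ± 143 at 30 C and 2842 ± 26.1 at 22 C (SD, n = 4 each). Celsr2, at 812 ± 64.9 at 30 C and 443 ± 109 at 22 C, and Tle3, at 855 ± 135 and 557 ± 56.9 in the same order, were the 2 genes of the pathway lists that passed, and both were higher at 30 C (limma adjusted p = 0.0173 and 0.0238). These were 1 of 18 surface genes and 1 of 27 cytoplasmic and nuclear genes, beside 0 of 13 targets and 0 of 3 secretion genes.

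In TrkA-flox Th-cre against wild type at P28 and 22 C, no member of 27 tested passed the limma threshold, with 3 at an unadjusted p under 0.05. The background was 2.66% of 11899 genes (1.34% higher and 1.32% lower), and 2280 genes had an unadjusted p under 0.05. Lgr4 had 202, 173, 197 and 210 in TrkA-flox Th-cre, against 201, 283, 278 and 254 in wild type. Only wild-type replicate 1 lay within the TrkA-flox Th-cre range, and the log2 fold change was -0.37 ± 0.12 (SE, limma adjusted p = 0.149). Of the 8 fits that each left out 1 library it passed in the 1 without that overlapping library, at -0.47 and an adjusted p of 0.0467, beside 3.62% of all genes. In the other 7 its adjusted p ran from 0.101 to 0.315.

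Sfrp4, an antagonist secreted by adipose tissue, had 32.7, 12.1, 28.2 and 22.7 in TrkA-flox Th-cre, against 29.1, 41.6, 35.0 and 50.2 in wild type, at -0.74 ± 0.31 (SE, limma adjusted p = 0.238). Ctnnb1 had 2155, 2166, 2308 and 2217 in TrkA-flox Th-cre, against 2469, 2463, 2535 and 2480 in wild type. The groups did not overlap, but the difference was small, at -0.17 ± 0.07 (SE, limma adjusted p = 0.245). Tcf7l1 had 197, 248, 228 and 223 in TrkA-flox Th-cre, against 171, 212, 170 and 205 in wild type, at 0.24 ± 0.11 (SE, limma adjusted p = 0.279). Lef1 was at 0.15 ± 0.19 (SE), with 247, 179, 164 and 293 in TrkA-flox Th-cre, against 220, 165, 218 and 177 in wild type.

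Among the other pathway genes of the TrkA comparison Dvl3, a Dishevelled that relays the signal from Frizzled, was higher, at 388 ± 37.9 in TrkA-flox Th-cre and 151 ± 22.9 in wild type (SD, n = 4 each), a log2 difference of 1.36 ± 0.13 (SE, limma adjusted p = 0.000655). Wls, the carrier that brings Wnts to the cell surface, was higher at 514 ± 36.3 against 354 ± 39.8 in wild type. Ccnd1, which encodes cyclin D1, was lower at 232 ± 56.3 against 454 ± 87.2. These were 1 of 26 cytoplasmic and nuclear genes, 1 of 3 secretion genes and 1 of 11 targets, and none of 16 surface genes passed. The summed epithelial markers were 54.3 to 1814 in TrkA-flox Th-cre and 62.6 to 6772 in wild type, and 4 of 7 macrophage markers were higher in TrkA-flox Th-cre. Skeletal muscle marker sums were 1213 to 6573 in TrkA-flox Th-cre and 301 to 881 in wild type, and Myh2 and Ttn passed higher. Schwann cell marker sums were 1297 to 2020 in TrkA-flox Th-cre and 2046 to 3368 in wild type, and Cdh19 and Pllp passed lower. Of the thermogenic adipocyte markers Cox7a1 and Ucp1 passed lower, with Ucp1 averaging 419 in TrkA-flox Th-cre and 1545 in wild type. The part of any of these cell types in these genes was not tested. The TrkA and P28 temperature comparisons share their 4 wild-type libraries at 22 C, so that values such as Lgr4 at -0.37 and -0.76 rest in part on the same samples.

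Cooling was compared between ages as 4 C minus 22 C at 9 weeks and 22 C minus 30 C at P28, in separate libraries. None of 28 members differed in the t test of the difference, beside 3.33% of 11618 genes, and 7 members and 2073 genes had an unadjusted p under 0.05. Fzd8 came nearest, with a cooling effect of -0.51 at 9 weeks and 0.52 at P28, a difference of -1.03 (95% interval -1.62 to -0.44, adjusted p = 0.0517). Fzd3 was at 0.66 at 9 weeks and -0.25 at P28, a difference of 0.91 (95% interval 0.323 to 1.496, adjusted p = 0.0850). Lgr4 was at 0.01 at 9 weeks and 0.76 at P28, a difference of -0.75 (95% interval -1.29 to -0.22, adjusted p = 0.119). With a z test in place of t, Fzd3, Fzd8, Lgr4 and Lrp5 passed, beside 9.05% of genes. The z test makes no allowance for SEs estimated from few libraries, so it is the more lenient of the pair. The temperatures of the 2 comparisons differ, as do the mice's ages.

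**Figure D5:**
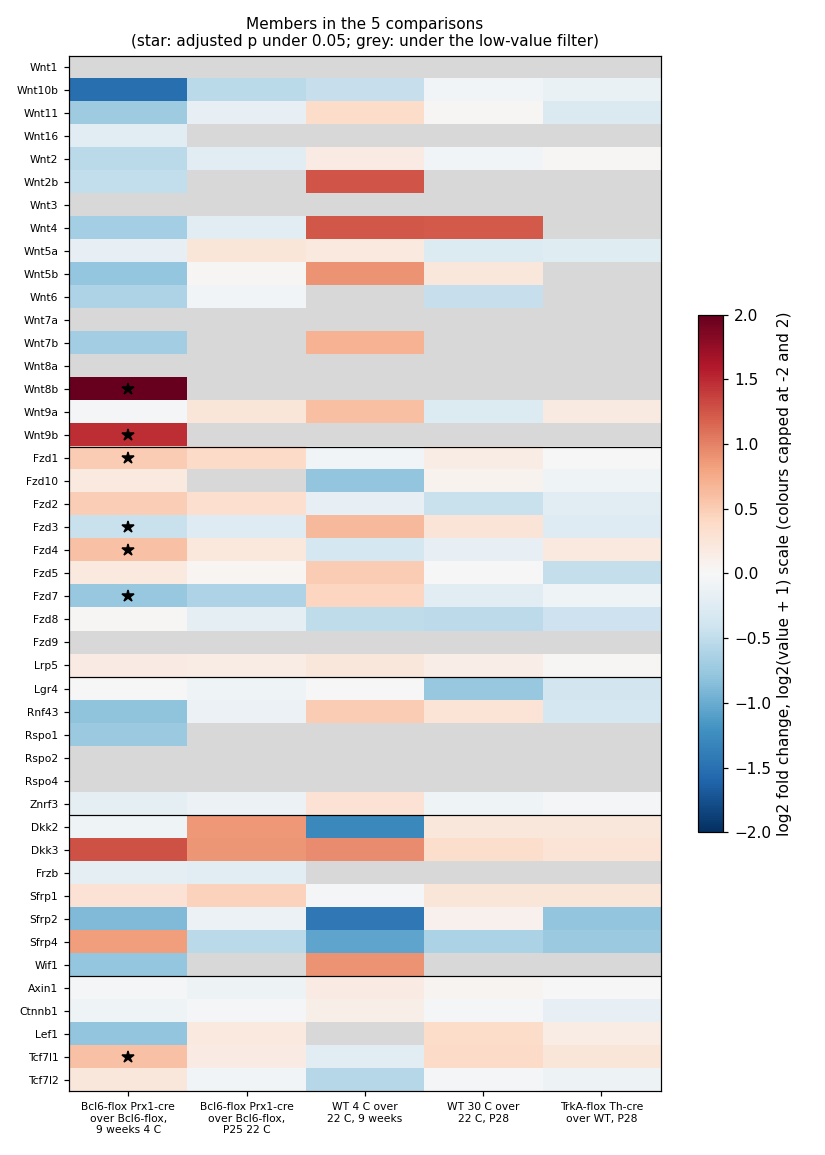
Log2 fold changes of the 45 members (rows, by role) in the 5 comparisons (columns, the group named first over the other), with colours capped at -2 and 2, grey for members under the low-value filter and a star for an adjusted p under 0.05. All 7 stars stand in the 9-week Bcl6 column, and 4 of them mark receptors.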

How the data were processed

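The deposited signal values are the authors' normalized counts per gene in 5 tables, 1 per comparison. Per the submitters' processing notes, kallisto, DESeq2 and the mm10 build were used; the sources used here give neither versions nor options. Per the labels' protocols, flash-frozen tissue and a stranded mRNA kit were used. Ratios between the P28 tables, which share 4 libraries, differed from gene to gene, so the scaling was not 1 factor per library, and whole reads could not be recovered.

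Tests used limma 3.58.1 (R 4.3.3) with a mean-variance trend on log2(value + 1), within a table, for genes at 10 or more in a number of libraries equal to the smaller group, with Benjamini-Hochberg adjustment over all tested genes at 0.05. Effects of 2 tables were compared by a t test of their difference. Scripts were tested on simulated data. Lengths for levels are of the longest coding transcript.

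The members and gene lists were chosen with earlier results of these data known. Values are printed for members past the threshold, or up to 4 with the smallest p, plus Lef1 and Ctnnb1, and Wnt4, Wnt7b, Rnf43, Rspo1, Sfrp2 and, at 9 weeks, Dkk3 were added after their values were seen. The label check of 1 targeted gene is not reported here. P25 columns carry codes that match no sample title. Alternatives were other scalings, pseudocounts (0.5, 5), filters (none, 50), Xist or muscle covariates, a replicate block (at P25 on column codes, added after seeing the data) and leaving out each library.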

Additional observations from a re-analysis of the deposited data

Results flagged for a closer look

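A single library far from the rest of its group was found in 2 of 60 groups of values checked, and chance alone gives about 1 in 20. Fzd7 was 434.2 in floxed library F4 at P25, while the other 6 floxed libraries lay between 160.9 and 271.1. Wnt9b was 13.26 in floxed replicate 3 at 9 weeks and 4 C, while the other 3 floxed libraries lay between 3.338 and 4.41; the same library has the high muscle and low epithelial marker sums.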

How the results depend on the processing

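Counts of members past the threshold moved in these settings. At 9 weeks and 4 C, 7 members passed between Bcl6 genotypes (14.5% of genes), and 14 with a skeletal muscle score as covariate (21.4% of genes). When 1 library was left out, 14 passed without floxed replicate 3 (26.0% of genes) and 2 or 3 in each of the other fits (7.74% to 11.7% of genes). Adult cold had 0 members, 4 with Xist class (18.4% of genes) and 2 with the muscle score (Dkk2 and Sfrp2, 15.2% of genes). The P25 comparison had 0, and 1 with Xist class (Fzd7, 3.99% of genes). The P28 temperature and TrkA comparisons had 0 to 1 when 1 library was left out, Lgr4 each time (2.33% and 3.62% of genes where it passed). With Xist class as a covariate Lgr4 missed the threshold in both, at limma adjusted p = 0.0600 between temperatures and 0.223 in the TrkA comparison. The cooling difference had 0, and 4 with a z test in place of t (9.05% of genes).

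With replicate numbers as a block the members past the threshold were 3 at 9 weeks between Bcl6 genotypes (Fzd7, Tcf7l1 and Wnt8b, beside 8.68% of genes), 3 of 31 in adult cold (Dkk3, Fzd7 and Sfrp2, beside 13.7% of genes), and 0 in both P28 comparisons. Same-numbered libraries did not deviate together in every pair of any table, with correlations from -0.66 to 0.77, so the numbers are not taken as pairs. At P25 the block used the column codes, which match no sample title, and was added after seeing the data. These codes hold the Xist class as well, and the block gave 1 member (Fzd7, 5.74% of genes).

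Signs turned only for members far from the threshold. Ctnnb1 was at 0.0486 at P28 between temperatures and 0.0150 at P25 under quantile scaling. Lef1 was at -0.41 in the TrkA comparison and -0.26 at P25 with the muscle score. When 1 library was left out, Lef1 ran from -0.0022 to 0.277 in the TrkA comparison and from -0.0296 to 0.657 at P25, and Ctnnb1 from -0.0728 to 0.0351 at P25; the cause was not tested. Depth is lowest at P28, and genes under the filter were not tested there.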
